A study of Mus musculus with 2 samples.

Results

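The microRNAs (miRNAs) of the miR-99/100 and miR-125 families, with let-7e, were described in the heart of the newborn mouse. They comprised 7 of the 1973 miRNA gene rows that were counted: Mir99a, Mir99b, Mir100, Mir125a, Mir125b-1, Mir125b-2 and Gm25927, taken by their gene identifiers and not by their values. Gm25927 is a miRNA gene annotated on the strand opposite to Mirlet7e, the gene of let-7e. Mirlet7e had no row of its own, so the reads on the opposite strand of Gm25927 were taken for let-7e. The samples were the single hearts of 2 B6NCrl pups on postnatal day 0, with no treatment or genetic change named in the labels. Pup 2 was replicate 1 and pup 3 was replicate 2, both from pregnant female 1, and sex was not collected. There was 1 library per heart, from total RNA with small inserts, and there was 1 group only. No comparison between conditions was therefore possible, and the design allowed the levels of these genes, the balance within their clusters and the difference between 2 littermates to be described.

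A miRNA is cut from a hairpin precursor as a 5p or a 3p arm of about the length of a sequenced insert, and it recognises messenger RNAs mainly through its seed, here bases 2 to 8. The miR-100, let-7 and miR-125 genes stand side by side in the genomes of most animals with bilateral symmetry, and mammals carry several copies of that cluster. Members of the miR-99/100 family are known to repress Mtor, which encodes a growth-regulating kinase. miR-125 is the vertebrate counterpart of lin-4 of the nematode, which, like let-7, times developmental transitions. In the zebrafish heart, miR-99/100 and let-7 are known to fall when heart muscle regenerates after injury.

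The 3 clusters kept the same gene order, first a miR-99/100 gene, then a let-7 gene, then a miR-125 gene, all on the plus strand. Positions are on GRCm38, the assembly also called mm10, from GENCODE M21. On chromosome 16, Mir99a (chr16:77598936-77599000) was followed after 656 nt by Mirlet7c-1 and after a further 46522 nt by Mir125b-2 (chr16:77646273-77646343). All 3 lay within the non-coding host gene Mir99ahg, overlapping none of its exons. Mir99a and Mirlet7c-1 also lay within the protein-coding gene Gm11146 on the minus strand, outside its exons, and Mir125b-2 overlapped an exon of C130023A14Rik on the plus strand. On chromosome 9, Mir100 (chr9:41531425-41531504) was followed after 5211 nt by Mirlet7a-2 and after a further 45114 nt by Mir125b-1 (chr9:41581926-41582002), all within the non-coding gene 3110039I08Rik and outside its exons. Mir125b-1 also overlapped an exon of the sense intronic gene Gm28119, and Mir100 an exon of Gm48742, a long non-coding gene on the minus strand. The chromosome 17 cluster was compact: Mir99b (chr17:17830188-17830257), Mirlet7e (chr17:17830352-17830444) and Mir125a (chr17:17830812-17830879) spanned 692 nt within the protein-coding gene Spaca6, where Mir99b and Mirlet7e were intronic and at least 1 annotated exon overlapped Mir125a. Gm25927 (chr17:17830343-17830459, minus strand) covered the whole 93-nt precursor of Mirlet7e, and the counts placed 0 reads of either library on its own strand.

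**Figure D1:**
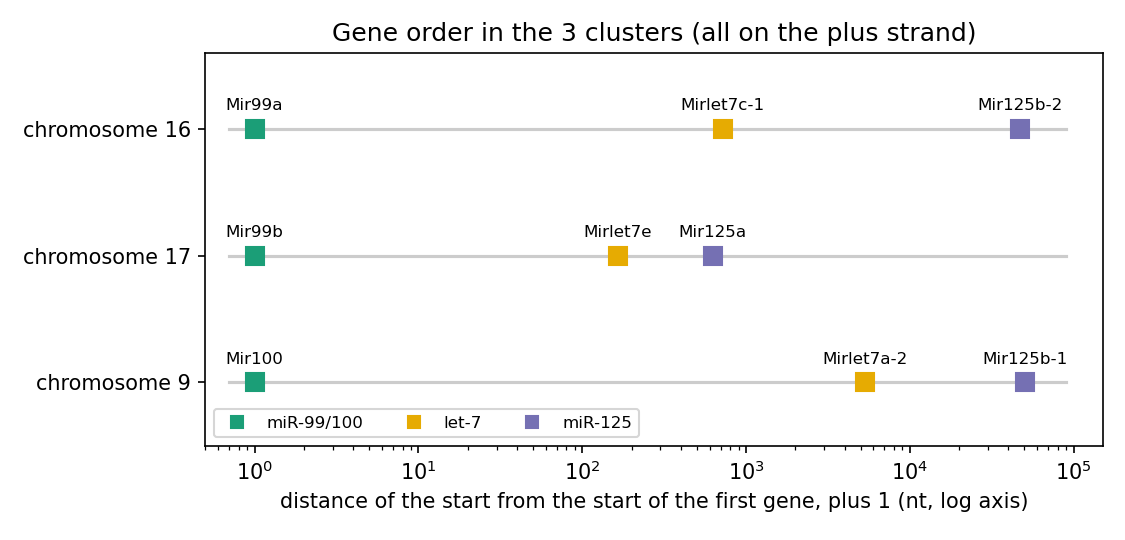
Distance in nt, on a log axis, of each gene's start from the start of the first gene of its cluster. The 3 rows are the clusters of chromosomes 16, 17 and 9, and colours mark the families. The last gene starts 624 nt after the first on chromosome 17, and 47337 nt and 50501 nt after it on chromosomes 16 and 9.

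The mature 5p arms show how the members are related and which reads can be placed. They are from RefSeq on GRCm38.p6, 5′ to 3′, with the seed in capitals. All 6 genes of the miR-99/100 and miR-125 families and Mirlet7e matched an entry.
miR-99a-5p: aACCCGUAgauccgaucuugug
miR-100-5p: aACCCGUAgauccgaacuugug
miR-99b-5p: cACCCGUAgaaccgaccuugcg
miR-125a-5p: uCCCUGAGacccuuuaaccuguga
miR-125b-5p: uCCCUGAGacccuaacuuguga
let-7e-5p: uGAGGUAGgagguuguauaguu
let-7c-5p: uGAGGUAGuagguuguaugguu

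The 3p arms of the miR-99/100 genes, shown for contrast, were less alike in the seed.
miR-99a-3p: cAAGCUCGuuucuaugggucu
miR-99b-3p: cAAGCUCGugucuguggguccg
miR-100-3p: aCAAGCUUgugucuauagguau
Those of Mir99a and Mir99b shared the seed AAGCUCG, and that of Mir100 had a seed that no other RefSeq entry held.

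The 3 miR-99/100 5p arms shared the seed ACCCGUA, and no other gene in the RefSeq table held it among 1738 mature entries. Counted from 1 at the 5′ end of miR-99a-5p, miR-100-5p differed from it by the single change U16A. miR-99b-5p differed from miR-99a-5p by 4 changes, A1C, U11A, U16C and U21C, of which none lies in the seed. miR-125a-5p and miR-125b-5p shared the seed CCCUGAG and their first 13 bases, at lengths of 24 and 22 nt. let-7e-5p differed from let-7c-5p by U9G and G19A, again outside the seed.

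miR-125b-5p was found in 2 precursors, those of Mir125b-1 and Mir125b-2, which share a stretch of 24 nt that holds it whole. Their 3p arms, shown because they tell the 2 loci apart, were each found in 1 precursor.
miR-125b-1-3p: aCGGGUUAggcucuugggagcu
miR-125b-2-3p: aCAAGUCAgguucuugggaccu
A read of the 5p arm alone thus has more than 1 place on the genome. Reads that aligned to several places were 36.6% of all reads in replicate 1 and 37.1% in replicate 2, and they entered no gene row. The counts of Mir125b-1 and Mir125b-2 therefore leave out such reads, and how many there were was not measured. The precursors of Mir99a, Mir99b, Mir100, Mir125a and Mirlet7e shared no stretch of 18 nt with another of 2202 annotated precursors. Exact matches of at least 18 nt to them were thus not split among miRNA genes. Only miRNA precursors were searched, not the genome.

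The libraries held 2323450 sense counts on miRNA genes in replicate 1 and 3487183 in replicate 2. Levels are given as CPM, the count on the gene's strand per 1000000 sense counts, and each SD is taken over the 2 pups. Counts are per gene, so the 5p and 3p arms are not separated, and as mature miRNAs are nearly equal in length no correction for length was made. The labelled tissue was checked by its markers. The heart muscle genes Mir208a, Mir208b and Mir499 held 9.01% and 8.89% of the sense counts, the endothelial Mir126a 10.8% and 10.6%, and the smooth muscle pair Mir143 and Mir145a 9.83% and 10.2%. Muscle genes outside these lists were counted low. Mir1a-1 had 17 and 19 counts, Mir133a-1 20 and 25, and Mir133a-2 and Mir133b 5 and 7 each. How many of their reads aligned to several places was not measured, so the muscle check rests on the listed genes only. Red cell markers held 0.0705% and 0.0608%, white cell markers 0.0536% and 0.0498%, and the liver miRNA Mir122 0.0054% and 0.0047%. The 5 counted brain genes were at 0, but they are copies of Mir9 and Mir124a, whose shared reads would enter no row, so they check nothing. Epithelial markers, 8 of 8 counted, had a summed level of 244 CPM in the first heart, replicate 1, against 1373 CPM in the other. Their part in the differences between the pups given further on was not tested.

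The 7 genes together held 8.78% ± 0.291 (SD, n = 2) relative to the sense total, from 8.99% in replicate 1 and 8.57% in replicate 2. In this sum and that of the let-7 genes, the let-7e reads come from the opposite strand and are not in the total they are divided by. Mir99a alone made up most of the sum. On the same scale the miR-99/100 family reached 8.18% ± 0.297, the let-7 genes of the 3 clusters 0.303% ± 0.0129 and the miR-125 genes 0.318% ± 0.00679. The sum of the miR-125 family leaves out 5p reads of miR-125b aligned to both loci. That of the let-7 genes likewise leaves out 5p reads of Mirlet7c-1 and Mirlet7a-2 that aligned to a further locus as well. The rank of each of these sums beside the other families is therefore uncertain.

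Among the miR-99/100 genes, Mir99a had 158762 counts in replicate 1 and 227470 in replicate 2, or 68330 and 65230 CPM. By reads placed at 1 locus, both hearts put it 5th of the miRNA gene rows, and its mean was 66780 ± 2192 CPM. Genes whose reads align to several places could stand higher than their rows show, so this is no rank among all mature miRNAs. Its share had an exact Clopper-Pearson 95% interval from 6.80% to 6.87% in the first heart and from 6.50% to 6.55% in the second. The intervals of the 2 hearts did not overlap. They allow for counting error alone, as no molecular identifiers separate copies made by PCR from independent molecules.

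Mir99b, the family's gene in the compact cluster, had 27677 and 36964 counts, or 11912 and 10600 CPM. It stood at rank 21 in both hearts, with a mean of 11256 ± 928 CPM, and the intervals of its share, 1.18% to 1.21% and 1.05% to 1.07%, did not overlap. Mir100, whose 5p arm differs from that of Mir99a by 1 base, had 8487 and 13488 counts, or 3653 and 3868 CPM, at ranks 27 and 26, with intervals of 0.358% to 0.373% and 0.380% to 0.393%. The levels of the 3 genes were thus far apart in both hearts, and their ranges did not overlap. Mir99a exceeded Mir99b by a log2 ratio of 2.57 ± 0.0717 (5.94-fold) and Mir100 by 4.15 ± 0.106 (17.8-fold). Mir99b exceeded Mir100 by 1.58 ± 0.177. Mir99a gave 81.6% ± 0.282 of the counts of the 3 genes, both arms included, Mir99b 13.7% ± 0.635 and Mir100 4.60% ± 0.353.

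**Figure D2:**
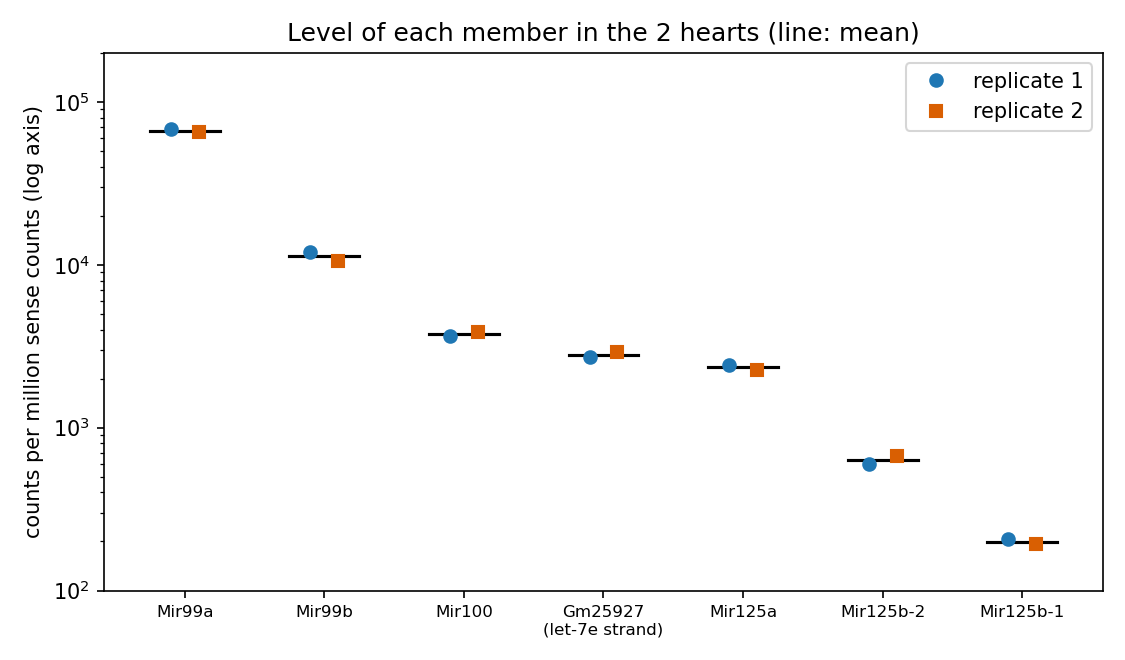
CPM of each member on a log axis, with a circle for replicate 1, a square for replicate 2 and a line for their mean. Levels run from about 200 CPM for Mir125b-1 to 66780 CPM for Mir99a, and neighbours in the order do not overlap between the 2 hearts.

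In the miR-125 family, Mir125a, which has its 5p arm to itself, had 5642 and 7916 counts, or 2428 and 2270 CPM, at ranks 43 and 45. Its intervals, 0.237% to 0.249% and 0.222% to 0.232%, did not overlap. Mir125b-2 had 1383 and 2345 counts, or 595 and 672 CPM, at ranks 90 and 85, with intervals of 0.0564% to 0.0627% and 0.0646% to 0.0700%. Mir125b-1 had 482 and 671 counts, or 207 and 192 CPM, at ranks 123 and 134, and its intervals of 0.0189% to 0.0227% and 0.0178% to 0.0208% overlapped. The pair of genes that share their 5p arm were the lowest of the 7 in both hearts. On these counts, Mir125a exceeded Mir125b-2 by a log2 ratio of 1.89 ± 0.193 and Mir125b-1 by 3.55 ± 0.00763, and Mir125b-2 exceeded Mir125b-1 by 1.66 ± 0.201. These ratios compare the reads that could be placed and not the amounts of the mature miRNAs.

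let-7e, read from the opposite strand of Gm25927, had 6339 and 10111 reads, or 2728 and 2899 CPM, with a mean of 2814 ± 121 CPM. Set against the sense total, the intervals of its share were 0.266% to 0.280% and 0.284% to 0.296%. It would stand at rank 40 and rank 38 among the gene rows. The 2 let-7 genes of the other clusters were counted far lower: Mirlet7c-1 had 259 and 407 counts (111 and 117 CPM) and Mirlet7a-2 had 224 and 356 (96.4 and 102 CPM). Each shares its 5p arm with a further locus, Mirlet7c-2 and Mirlet7a-1, so these counts carry the uncertainty described for Mir125b-1 and Mir125b-2. let-7e-5p was found in 1 precursor only.

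In the list of 12 genes of the let-7 family, which share the seed GAGGUAG, 11 had a row, with let-7e in the row of Gm25927. Among reads placed at 1 locus, let-7e ranked 6th of the 11 and gave 2.69% ± 0.134 of their summed counts. On these counts Mirlet7g led with 45.7% ± 0.501, followed by Mirlet7i with 30.9% ± 0.249 and Mirlet7d with 11.8% ± 0.424. Mirlet7b (3594 ± 7.55 CPM) and Mir98 (3113 ± 27.5 CPM) lay just above let-7e, and Mirlet7f-2 (2201 ± 21.9 CPM) just below it. The ranges of these 4 over the pups did not overlap. The rows below let-7e were those whose 5p arm stands in 2 precursors, namely Mirlet7f-2, Mirlet7a-1, Mirlet7c-2, Mirlet7c-1 and Mirlet7a-2, and their missing reads could place any of them higher. The order and the shares within the family therefore hold for placed reads only. Mirlet7f-1 was not analysed here.

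The order of the 7 by mean level was Mir99a, Mir99b, Mir100, let-7e, Mir125a, Mir125b-2 and Mir125b-1. It was the same in each heart. The closest neighbours were let-7e and Mir125a, whose means differed 1.20-fold: the lower value of let-7e was 2728 CPM and the higher value of Mir125a was 2428 CPM. Mir100 and let-7e differed 1.34-fold, and all other neighbours differed 2.99-fold or more. The order is one of reads placed at 1 locus, and the last 2 places rest on genes whose shared 5p reads are left out. The efficiency with which each miRNA enters a library was not measured and is no part of the SD.

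**Figure D3:**
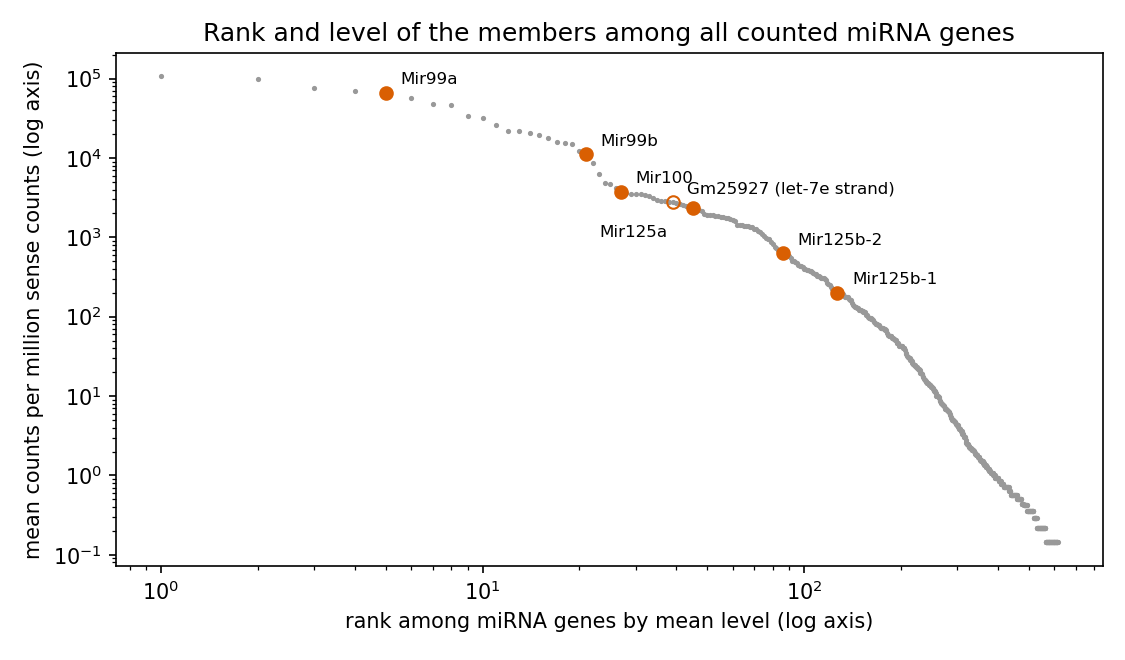
Mean CPM of every miRNA gene with a count against its rank, both on log axes, with the members in orange and let-7e, read from the opposite strand, as an open circle. Mir99a stands at rank 5, Mir99b at rank 21 and Mir125b-1 at rank 127. Reads aligned to several places are left out of levels and ranks.

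Within each cluster the miR-99/100 gene gave most of the counts. On chromosome 16, Mir99a made up 98.9% ± 0.121 of the cluster's 67528 ± 2134 CPM, Mir125b-2 0.940% ± 0.111 and Mirlet7c-1 0.169% ± 0.0108. On chromosome 9, Mir100 made up 92.6% ± 0.427 of 4060 ± 146 CPM, Mir125b-1 4.93% ± 0.439 and Mirlet7a-2 2.44% ± 0.0113. In both of these clusters the let-7 and the miR-125 gene share their 5p arm with another locus.

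The chromosome 17 cluster is the one in which none of the 3 genes shares its 5p arm, and there the balance was more even. Mir99b made up 68.5% ± 1.82 of 16419 ± 919 CPM, let-7e 17.2% ± 1.70 and Mir125a 14.3% ± 0.119. Mir99b exceeded let-7e by a log2 ratio of 2.00 ± 0.181 (3.99-fold) and Mir125a by 2.26 ± 0.0503 (4.78-fold). The corresponding ratio to the miR-125 gene was 6.72 ± 0.172 for Mir99a over Mir125b-2 and 4.23 ± 0.135 for Mir100 over Mir125b-1. No test was made of these ratios: with 2 pups the smallest p of an exact sign-flip test, two-sided, is 0.5.

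**Figure D4:**
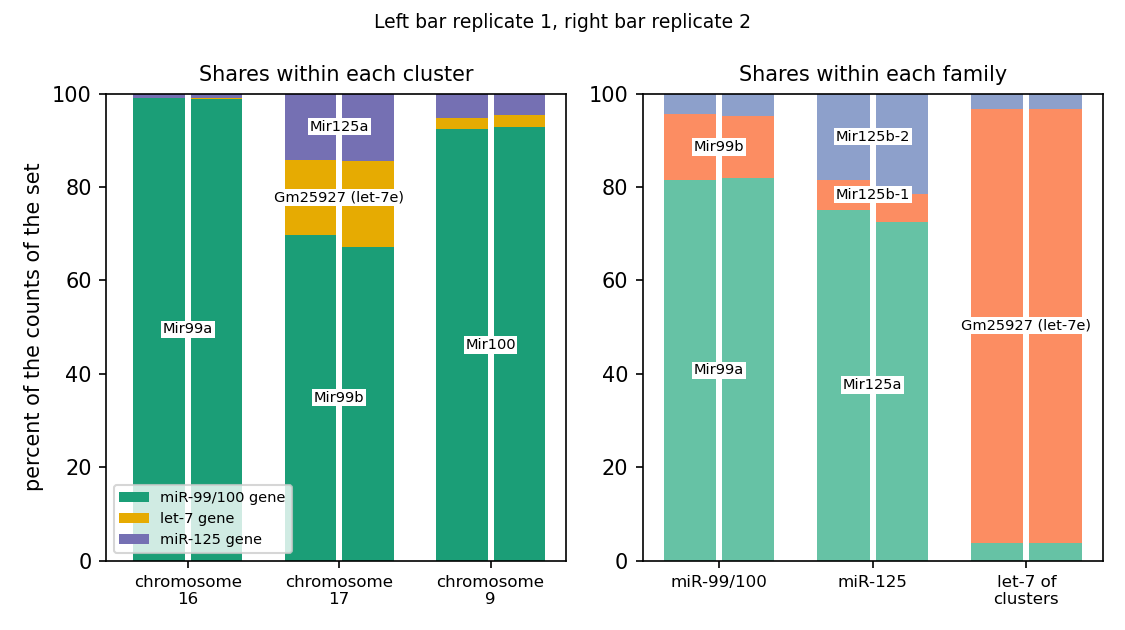
Percent of the counts of each cluster (left panel) and of each family (right panel) given by each gene, with replicate 1 as the left bar and replicate 2 as the right bar of each pair. Mir99a fills 98.9% of the chromosome 16 cluster on average, while the chromosome 17 cluster is split into 68.5% Mir99b, 17.2% let-7e and 14.3% Mir125a. Reads aligned to several places are in no bar.

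Between the 2 hearts, none of the 7 genes passed 1.5-fold. Of all 349 genes tested 38 did, but of the 194 that averaged at least 50 CPM, as every member did, 6 passed it, and of the 76 averaging at least 1000 CPM, 5 of them members, 0 did. The median absolute log2 ratio was 0.11 over the members, 0.16 over all tested genes, 0.11 over the 194 and 0.09 over the 76, so the members did not stand apart from genes of like depth. Each gene was tested by an exact binomial test, two-sided, on TMM-scaled library sizes (TMM sets the scale by the bulk of the genes), with Benjamini-Hochberg adjustment over all genes. By it, 6 of the 7 differed between the libraries, 3 higher and 3 lower in replicate 2. Over all 349 genes tested, 28.1% were called, 18.1% as higher and 10% as lower in replicate 2. The test compares 2 libraries at counting error and not conditions, and it calls small differences in deeply counted genes: of the 76 genes averaging at least 1000 CPM, 69.7% were called. The summed epithelial markers, at 244 and 1373 CPM, differed far more between the hearts than any member did. Both pups were littermates, and no value here covers the spread over litters. In a whole heart fewer cells of a type and less RNA per cell cannot be told apart.

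Mir99b differed most among the called members. It was lower in replicate 2 by a log2 ratio of -0.18 (95% counting interval -0.21 to -0.16, adjusted p = 1.56e-56, exact binomial test). Mir125a, in the same cluster, was lower by a log2 ratio of -0.11 (-0.16 to -0.06, adjusted p = 4.24e-05, exact binomial test). let-7e, between them, was higher by 0.07 (0.03 to 0.12, adjusted p = 0.00869, exact binomial test). The counting interval of let-7e thus overlapped neither that of Mir99b nor that of Mir125a.

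On chromosome 16, Mir99a was lower in replicate 2 (log2 ratio -0.08, -0.09 to -0.07, adjusted p = 4.66e-68, exact binomial test) and Mir125b-2 was higher (0.16, 0.06 to 0.26, adjusted p = 0.00511, exact binomial test). Mirlet7c-1 did not pass, at 0.05 with an interval of -0.18 to 0.28. On chromosome 9, Mir100 was higher (0.07, 0.03 to 0.11, adjusted p = 0.00442, exact binomial test). Mir125b-1 (-0.12, -0.30 to 0.05) and Mirlet7a-2 (0.07, -0.18 to 0.31) did not pass, and their intervals allow a difference in either direction. On chromosomes 16 and 17 called genes thus lay on both sides in these 2 libraries. The calls allow for counting error alone, so whether the genes of a cluster shift together between hearts was not tested.

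**Figure D5:**
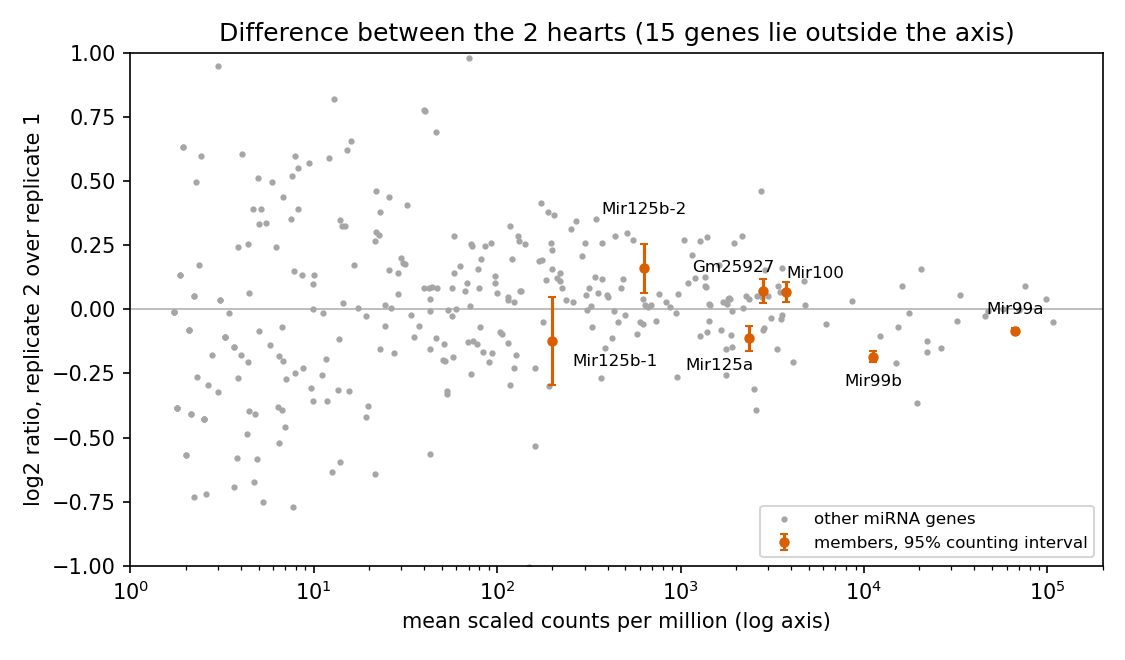
Log2 ratio of replicate 2 over replicate 1 against mean scaled CPM (log axis) for the 349 genes tested, with the members in orange and bars for their 95% counting intervals. The members lie between -0.18 and 0.16, and 15 other genes lie outside the plotted range.

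In the let-7 list differences were small too. Of its 11 rows, let-7e was called higher, Mirlet7d (log2 ratio -0.10) and Mirlet7i (-0.05) were called lower, and 8 did not pass. The share called was 27.3%, near the 28.1% over all 349 genes tested. Among those that did not pass, Mirlet7a-1, Mirlet7a-2, Mirlet7c-1 and Mirlet7c-2 had 224 to 418 counts per heart, few for calling differences this small. The median log2 ratio of the list was -0.02, against 0.03 over all tested genes.

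With 2 samples, likeness of a gene to a member was measured by level alone, as the larger of the absolute differences in log2(CPM + 1) in the 2 hearts. Mir208b, a heart muscle miRNA in an intron of a myosin gene, was nearest to Mir99a (0.10), followed by Mir322 (0.26). Mirlet7d (0.17) and Mir208a (0.42) were nearest to Mir99b, and Mirlet7b (0.11) and Mir93 (0.12) to Mir100. let-7e was matched by Mir106b (0.03) and Mir127 (0.08), and Mir125a by Mir15a (0.09) and Mir27b (0.14). Mir27a (0.07) and Mir16-2 (0.09) were nearest to Mir125b-2, and Mir132 and Mir671 (each 0.15) to Mir125b-1. Over 2 samples such likeness describes these libraries only.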

How the data were processed

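The deposited tables of the 2 hearts hold raw read counts for each miRNA gene, once regardless of strand, once for the gene's strand and once for the other strand. Per the deposited file descriptions, reads were placed on mm10 with GENCODE M4. No aligner, counter or setting is named (not given in the sources used here). The 4 summary rows were kept out of all totals: unmapped reads were 11.5% and 10.5% of reads, reads aligned to several places 36.6% and 37.1%, and those outside any feature, by strand, 5.93% and 5.62%. The sense strand held 46.0% and 46.9% of reads. No per-sample column lacked a label.

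Of 1973 gene identifiers, 1894 matched GENCODE M21 and gave symbols and positions. Mir125a and Mirlet7c-1 carry another version number there, so their limits may differ from those used for counting. Sequences came from RefSeq (GRCm38.p6) and GENCODE M21, read and compared with Python 3.11.15.

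CPM used the sense total. Ratios between genes used a pseudocount of 1 CPM. The 2 libraries were compared across all genes with 10 or more counts by an exact binomial test (scipy 1.17.1), given TMM sizes (edgeR 4.0.16), and called at an adjusted p under 0.05. The test was tried on simulated counts with counting noise alone, which is the noise it assumes. That trial does not cover any further spread between real libraries. edgeR's quasi-likelihood test needs replicated groups and was not used. The counts of the 2 libraries differed beyond sampling noise (chi-square per degree of freedom 29.5), so they were kept as 2 samples. Alternatives changed strand, total, pseudocount, scaling (DESeq2 1.42.0 size factors), count minimum and replicate. The miRNA genes named are all 7 members, the let-7 list, related seeds, marker lists and the 2 genes nearest in level to each member. Named outside these lists are the muscle genes Mir1a-1, Mir133a-1, Mir133a-2 and Mir133b. So are Mir6367 and Mir6394, which hold the miR-125 seed. Members and lists were chosen with earlier results of these data known.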

Additional observations from a re-analysis of the deposited data

How the results depend on the processing

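With the counts of both strands, or with sense and opposite-strand counts as the total, the share of the 7 genes fell to 8.20%, that of the clusters of chromosomes 16, 17 and 9 to 6.30%, 1.53% and 0.379%, and that of the miR-99/100, miR-125 and cluster let-7 genes to 7.64%, 0.297% and 0.283%. Both settings gave the same values, because no member had reads on the other strand. With all reads as the total, the same shares were 4.07%, then 3.13%, 0.762% and 0.188%, then 3.80%, 0.148% and 0.141%. Leaving out a replicate gives the value of the other pup, within the SD by construction. Under the other alternatives, 44 of the recomputed log2 ratios between genes moved by less than their SD over the pups and 10 by more, and none changed sign. Between the pups, 6 of the 7 genes were called under each of the 5 alternatives, with 87 to 104 genes called in all, against 98. The alternatives did not change the direction of any member. No paired analysis was possible because there is 1 group. Depth limited the low rows. The limit set for a count of 0 was 3 counts, or 1.29 CPM for replicate 1 and 0.860 CPM for replicate 2, as an approximate bound. The intervals of Mir125b-1, Mirlet7c-1 and Mirlet7a-2 between the pups included 0.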

Other observations

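Genes outside the clusters carry seeds related to those of the members. miR-351-5p, from the X chromosome, has the miR-125 seed CCCUGAG and the first 8 bases of miR-125b-5p, shown with the seed in capitals.
miR-351-5p: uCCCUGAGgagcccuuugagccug
Mir351 had 50556 counts in replicate 1 and 59597 in replicate 2, or 21759 and 17090 CPM, and so held more placed counts in each heart than Mir125a, Mir125b-1 and Mir125b-2 together (3231 and 3135 CPM). It was called lower in replicate 2 (log2 ratio -0.36, interval -0.38 to -0.35). The miR-125b reads aligned to both loci are missing from that comparison. Its counts include both arms of each gene, while the shared seed belongs to the 5p arms. Mir6367 and Mir6394, whose RefSeq mature sequences hold the same seed, had 0 counts in both hearts. For reads that can be placed, the limit set for a count of 0 was 1.29 CPM for replicate 1 and 0.860 CPM for replicate 2. It stands for 3 counts and is an approximate bound, not a maximum. Whether reads of these genes align to several places was not checked, so no limit is given for the mature miRNAs.

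The miR-10 genes of the Hox clusters are distant relatives of miR-99/100, with the seed ACCCUGU. Mir10a had 1148 and 1398 CPM and Mir10b 1422 and 1354 CPM, so the order of the 2 was not the same in both hearts. By the exact binomial test over all genes, Mir10a was higher in replicate 2 (log2 ratio 0.27, adjusted p = 9.58e-14) and Mir10b lower (-0.09, adjusted p = 0.0307). Mir670, the last gene of the list of related seeds, had 56 and 76 counts and did not pass.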
